A study of Populus ussuriensis with 12 samples.

Results

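In roots of the poplar *Populus ussuriensis*, 51 of 35907 gene identifiers had group means at least 2-fold higher on PEG6000 in wild type and PuC3H35 overexpressors. Their levels on PEG lay within a set window between the genotypes, with the overexpressor mean lower for 44 and higher for 7. All 51 were chosen by their measured values. Group means of log2(FPKM + 1) had to be at least 1 higher on PEG in each genotype. The overexpressor controls had to lie less than 0.5 above the wild-type controls. On PEG the genotypes had to differ by less than 0.75, which is 1.68-fold of FPKM + 1. In FPKM the gap can be wider for low genes, such as Potri.003G061100.v3.1 with PEG means of 5.79 (wild type) and 3.02 (overexpressor). The mean of the highest group had to reach 5 FPKM, a unit that divides a gene's reads by its length and by the depth of its library. All 12 libraries entered this choice, so the PEG responses and genotype differences below describe the members and test nothing.

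RNA came from roots of plants grown in vitro, which were 7 days old when moved to fresh half-strength MS medium and were sampled 7 days later. A stem segment of 3 cm is recorded for every library. Wild type (WT) and PuC3H35-OE plants each stood on medium without PEG or on medium with 6% PEG6000, with 3 libraries in each of the 4 groups. Libraries are named here by their label numbers, which are 1, 2 and 3 in both wild-type groups, 1, 2 and 5 in the overexpressor controls and 1, 3 and 4 in the overexpressor on PEG. The sources used here do not give the promoter of the transgene, the number of transgenic lines or the number of plants behind a library, so libraries of 1 group may differ for technical reasons alone. An effect of PuC3H35 and one of carrying a transgene cannot be told apart.

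Polyethylene glycol of high molecular weight lowers the water potential of the medium without entering cells, and is used to mimic drought. Roots under such osmotic stress are known to accumulate abscisic acid, which acts through soluble receptors, type 2C protein phosphatases and SnRK2 kinases to raise genes for protective proteins, compatible solutes and water transport. PuC3H35 belongs to the CCCH zinc finger proteins, many of which bind RNA or DNA, and several plant members of the family take part in stress responses. The files pair 0 of the 35907 identifiers with a gene name or product, so no role is given to any member. For the same reason neither PuC3H35 itself nor root marker genes were checked.

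Recovered depth was even, from 10566326 to 12053123 reads per library. All 51 members passed the filter of at least 1 FPKM in 3 libraries. The member with the fewest reads in any PEG library had 12 there, and the median of this lowest count over the members was 142 reads. In bulk RNA, more transcript per cell and more cells of an expressing type cannot be told apart.

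The condition on the genotypes' final levels removed more genes than any other step after the overexpressor's response. Of 17044 genes that reached 5 FPKM in some group, 1029 had at least a 2-fold higher mean on PEG in wild type and 287 of these also in the overexpressor. Another 33 genes had such a response in the overexpressor and a smaller or opposite one in wild type. Of the 287, 100 stood too high in the overexpressor controls. Of the 187 that were left, 134 ended lower in the overexpressor on PEG than the rule allows, 2 ended higher, and 51 stayed. The lower edge of the window on PEG was therefore crowded and its upper edge was empty: Potri.012G001600.v3.1 lay just inside at -0.7466 and Potri.005G245300.v3.1 just outside at -0.7576. The member nearest to the upper edge, Potri.009G067800.v3.1, lay at 0.50, and the nearest gene beyond it, Potri.001G273600.v3.1, at 0.83. At the edge of the overexpressor's response, Potri.005G221000.v3.1 was inside with a log2 difference of 1.01 and Potri.006G219200.v3.1 outside with 0.9955. For the wild-type response, Potri.010G250300.v3.1 was inside with 1.01 and Potri.014G067500.v3.1 outside with 0.98. At the edge of the control condition, Potri.014G108900.v3.1 was inside with 0.4997 and Potri.013G041700.v3.1 outside with 0.51. The lowest level inside was 5.23 FPKM for Potri.005G221000.v3.1, and the highest outside was 4.94 FPKM for Potri.001G148900.v3.1.

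**Figure D1:**
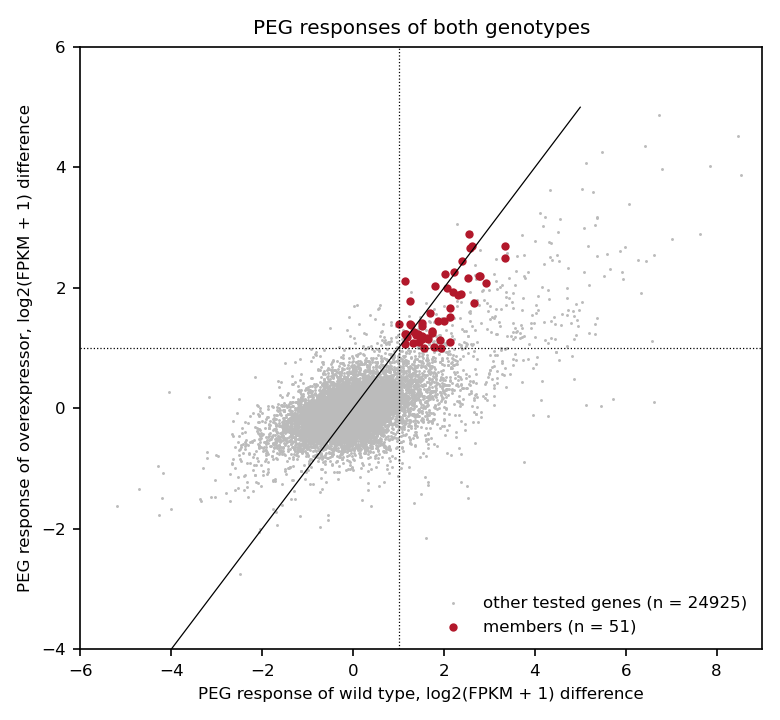
PEG response of wild type (horizontal) against that of the overexpressor (vertical), each the difference of group means of log2(FPKM + 1), for 51 members (red) and 24925 other tested genes (grey). Dotted lines mark a log2 difference of 1 and the solid line equal responses; 36 members lie below the solid line.

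The PEG responses in wild type ran from a log2 difference of 1.01 to 3.35, with a median of 1.79 over the members against -0.04 over all 24976 tested genes. In the overexpressor they ran from 1.01 to 2.90, with a median of 1.41 against -0.05. Responses of at least 4-fold (a log2 difference of 2) were seen for 21 members in wild type, 14 in the overexpressor and 12 in both. In wild type all 51 members had their 3 PEG libraries above their 3 controls, as 18.9% of all tested genes did. In the overexpressor 49 members did, against 6.45% of tested genes. The other 2, singled out after their values were seen, were Potri.016G096300.v3.1 and Potri.001G453800.v3.1, where PEG library 4 of the overexpressor had 26.7 and 1.81 FPKM and the highest overexpressor control 27.1 and 1.95 FPKM. For 45 members all 6 PEG libraries stood above all 6 controls, as for 2.67% of tested genes. By limma with a Benjamini-Hochberg adjusted p under 0.05, 51 members were called higher on PEG in wild type (12% of tested genes) and 41 in the overexpressor (1.54%). The same 41 were called in both genotypes, against 1.37% of tested genes. The rule used these contrasts, so the counts say nothing beyond the choice of members.

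The members covered a wide range of levels. On PEG their group means ran from 5.23 to 396 FPKM in wild type and from 3.02 to 364 FPKM in the overexpressor, with medians of 18.5 and 13.4 FPKM. On control medium the medians were 4.26 and 3.31 FPKM. A mean of at least 100 FPKM on PEG was reached by 7 members, 28 peaked at 10 to 100 FPKM and 16 at under 10 FPKM. Added up, the 51 members made up 0.0666% to 0.143% of the summed FPKM of a control library and 0.296% to 0.425% of a PEG library.

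**Figure D2:**
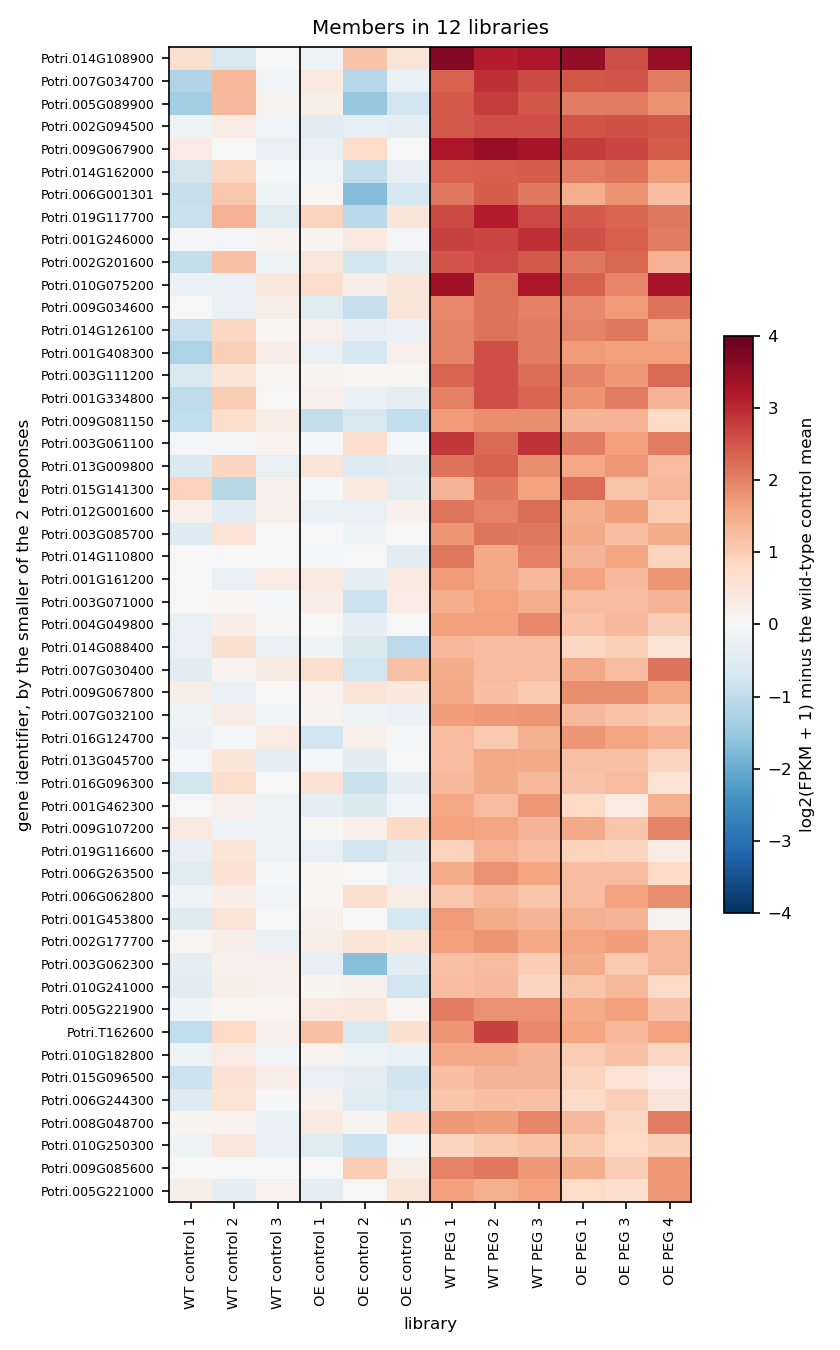
All 51 members (rows, ordered by the smaller of their PEG responses, the suffix .v3.1 left out) in 12 libraries (columns; WT wild type, OE overexpressor); colour gives log2(FPKM + 1) minus the wild-type control mean of the gene. Both PEG blocks are red but for single pale cells, such as Potri.001G453800.v3.1 in overexpressor library 4, and the control blocks hold blue and red cells side by side.

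On the log2(FPKM + 1) scale, the most abundant member was also the one with the largest response shared by both genotypes. With a pseudocount of 0.1 in place of 1 it ranked 7 among the members by its smaller response (Potri.001G246000.v3.1 ranked 1), and neither of them met the rule there. Potri.014G108900.v3.1 had 58.4, 23.7 and 37.5 FPKM in wild-type control libraries 1, 2 and 3, and 33.3, 83.6 and 54.1 FPKM in overexpressor control libraries 1, 2 and 5. On PEG it stood at 488, 340.5 and 361 FPKM in wild type and at 435, 228 and 431 FPKM in overexpressor libraries 1, 3 and 4. The genotypes overlapped on both media, and every PEG library was far above every control. Its log2 differences were 3.35 in wild type and 2.69 in the overexpressor. Its counted length is 252 bases, the shortest among the members.

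The second most abundant member behaved differently between libraries. Potri.005G089900.v3.1 had 20.6, 135 and 59.0 FPKM in wild-type controls and 65.2, 18.7 and 31.8 FPKM in overexpressor controls. On PEG it rose to 306, 381 and 313 FPKM in wild type and to 229, 236 and 195 FPKM in the overexpressor. All overexpressor PEG libraries were below all wild-type PEG libraries, while the controls of both genotypes overlapped. The log2 differences on PEG against control were 2.57 in wild type and 2.66 in the overexpressor. Potri.002G201600.v3.1 was next, with means of 48 ± 37.1 and 35.8 ± 16.3 FPKM on control medium and 234 ± 15.5 and 159 ± 47.3 FPKM on PEG in wild type and the overexpressor (SD, n = 3).

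Potri.002G094500.v3.1 had the most even level on PEG of all 51 members, with a coefficient of variation of 3.75% over the 6 PEG libraries. It stood at 20.8, 22.7 and 22.9 FPKM in wild type and at 21.5, 22.2 and 21.3 FPKM in the overexpressor. On control medium it had 2.44, 3.89 and 2.71 FPKM and 1.93, 2.18 and 2.01 FPKM. The libraries of both genotypes overlapped on PEG, after a log2 rise of 2.54 in wild type and of 2.90 in the overexpressor. The latter was the largest there among the members on the log2(FPKM + 1) scale, and ranked 5 with a pseudocount of 0.1. Its overexpressor controls were all below its wild-type controls. This was the 1 member called lower in the overexpressor on control medium by limma, against 7.56% of tested genes. The 0 members called higher stand against 12.8% of tested genes, but the rule had left out genes raised there by 0.5 or more.

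Potri.014G126100.v3.1 combined a high level with a small genotype difference on both media. It had 19.4, 66.5 and 38.5 FPKM in wild-type controls and 42.2, 29.0 and 31.5 FPKM in overexpressor controls. On PEG it had 149, 170 and 157 FPKM in wild type and 148, 162 and 108 FPKM in the overexpressor. The genotypes overlapped on both media, with log2 genotype differences of -0.12 on control medium and -0.21 on PEG. In all, 5 members differed by less than 0.25 between the genotypes on both media.

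**Figure D3:**
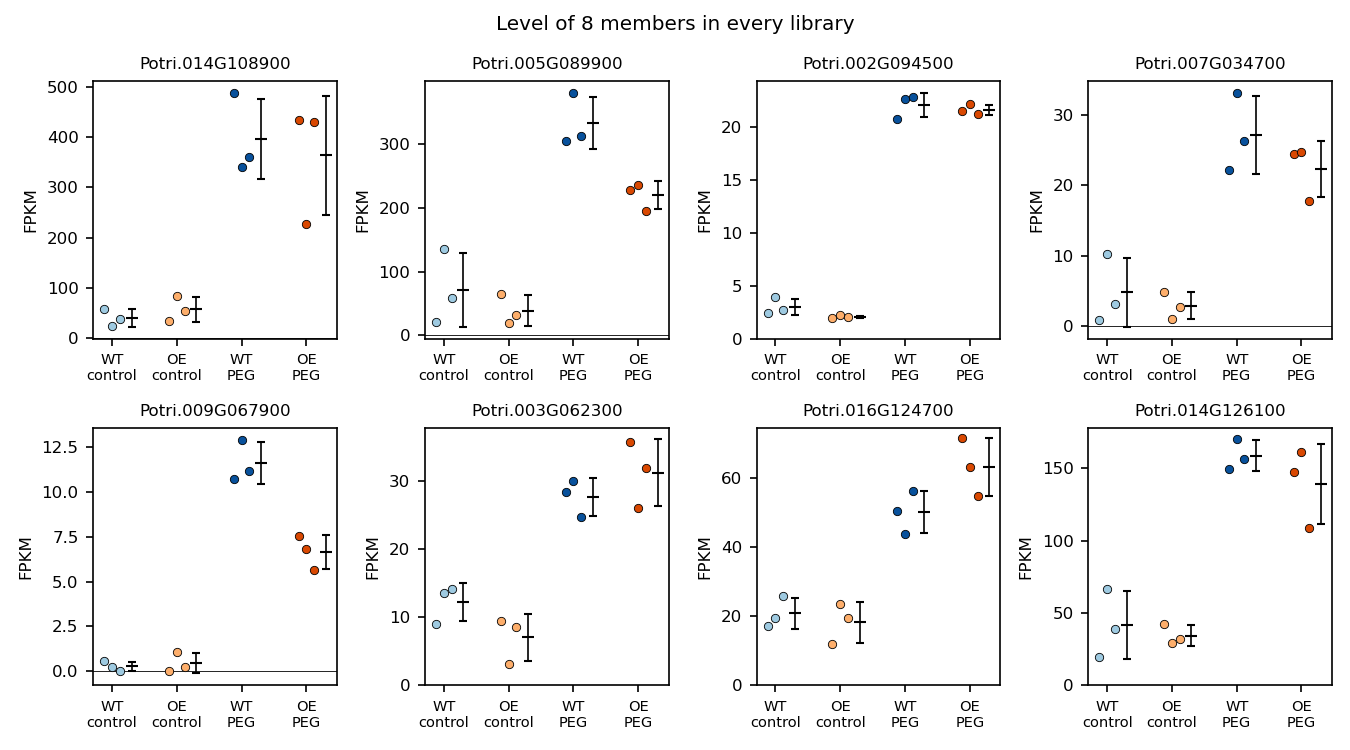
FPKM of 8 members in every library (vertical axis, linear, a separate scale for each gene); points are the 3 libraries of a group in the order of their label numbers, and the bar beside them is the mean ± SD. In all 8 genes each PEG library lies above each control library, and the points of Potri.002G094500.v3.1 on PEG nearly coincide across genotypes.

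Some members were very low on control medium. Under 1 FPKM in all 6 controls were 4 of them: Potri.001G246000.v3.1, Potri.003G061100.v3.1, Potri.010G075200.v3.1 and Potri.014G110800.v3.1. Potri.001G246000.v3.1 had 0, 0 and 1 read in wild-type controls and 1, 3 and 0 reads in overexpressor controls. On PEG it reached 5.70, 5.53 and 6.89 FPKM in wild type and 5.07, 4.43 and 3.30 FPKM in the overexpressor, with at least 29 reads in each PEG library. It was thus at or near 0 in every control and present in every PEG library of both genotypes. Potri.009G067900.v3.1 behaved alike, with at most 0.538 FPKM in wild-type controls and 1.06 FPKM in overexpressor controls, against 10.7 to 12.9 FPKM in wild type and 5.64 to 7.54 FPKM in the overexpressor on PEG. Differences of log2(FPKM + 1) understate the change of such genes. Their membership also hung on the pseudocount of 1. With 0.1 in its place, Potri.001G246000.v3.1, Potri.003G061100.v3.1, Potri.010G075200.v3.1 and Potri.009G067900.v3.1 did not meet the rule, while Potri.014G110800.v3.1 did. Potri.009G067900.v3.1 and Potri.003G061100.v3.1 also fell out under both median-ratio and upper-quartile scaling.

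Within the window that the rule allows, the overexpressor lay mostly below wild type on PEG. Its mean was lower for 44 members and higher for 7, with a median log2 difference of -0.46 over the members and 0.08 over all tested genes. For 26 members all 3 overexpressor libraries were below all 3 wild-type libraries on PEG, as for 12.4% of tested genes, and for 1 member all 3 were above, as for 22.6%. By limma 3 members were called lower in the overexpressor on PEG (5.3% of tested genes) and 0 higher (9.19%). The 3, singled out after their values were seen, were Potri.012G001600.v3.1, Potri.004G049800.v3.1 and Potri.007G032100.v3.1. The member with no overlap in the other direction was Potri.009G067800.v3.1, at 15.6, 12.3 and 11.0 FPKM in wild type and 19.9, 20.0 and 16.0 FPKM in the overexpressor on PEG.

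The overexpressor's log2 response was the smaller one for 36 members and the larger one for 15. By the limma test of that difference, 1 member was called with the smaller response in the overexpressor (4% of tested genes) and 0 with the larger (3.5%). In 13 of these 15 the overexpressor controls had the lower mean. Potri.003G062300.v3.1 showed the widest gap of the 15, with a log2 rise of 1.14 in wild type and 2.11 in the overexpressor. Its wild-type controls had 9.05, 13.6 and 14.1 FPKM and its overexpressor controls 9.48, 3.07 and 8.57 FPKM, while on PEG it had 28.4, 30.1 and 24.7 FPKM and 35.9, 26.1 and 31.9 FPKM. The genotypes overlapped on both media, and overexpressor control library 2 was the lowest of the 12. For Potri.016G124700.v3.1 the gap came with higher levels on PEG, 71.4, 63.1 and 54.8 FPKM in the overexpressor against 50.5, 43.8 and 56.1 FPKM in wild type. Its controls overlapped, with 17.1, 19.4 and 25.7 FPKM in wild type and 11.7, 23.5 and 19.3 FPKM in the overexpressor.

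On control medium the overexpressor mean was lower than that of wild type for 33 members and higher for 18, with a median log2 difference of -0.13, against 0.08 over all tested genes. The rule sets an upper bound on this difference and no lower one. It was -0.5 or below for 5 members, Potri.009G081150.v3.1 being the lowest at -0.86. That gene had 0.248, 3.01 and 2.07 FPKM in wild-type controls and 0.273, 0.612 and 0.252 FPKM in overexpressor controls, so that wild-type control library 1 was as low as the overexpressor libraries. The sign of the median rested on 1 library: without wild-type control library 2 it was 0.08, with 22 members lower in the overexpressor.

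The control libraries of 1 group differed from one another over many members at once. The rule used the mean of each group and not the order of its libraries. The same values entered those means, so the orders and shares given here and below describe the members and test nothing. In wild-type controls, library 2 had the highest value for 35 members and library 1 the lowest for 32. Over the 17044 genes that reached 5 FPKM, the shares were 30.2% and 34.6%. The summed level of the members was 404, 877 and 535 FPKM in wild-type control libraries 1, 2 and 3, against 599, 449 and 486 FPKM in overexpressor control libraries 1, 2 and 5. Relative to their group mean, the members had a median log2 deviation of -0.24 in wild-type control library 1 and 0.30 in library 2, where the other genes of 5 FPKM had 0.01 and -0.03. Even so, the summed level of every PEG library was higher, at 2366 to 2655 FPKM in wild type and 1818 to 2117 FPKM in the overexpressor.

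Spread between libraries was larger for the members than for genes of 5 FPKM in general. The median SD of log2(FPKM + 1) was 0.40 in wild-type controls and 0.41 in overexpressor controls, against 0.15 and 0.14. In the PEG groups the medians were 0.16 (wild type) and 0.26 (overexpressor), against 0.11 and 0.15. Part of the setting is the level: on wild-type control medium the median member had 4.26 FPKM and the median gene of this background 13.0 FPKM, and the part of the level in the spread was not tested. In the overexpressor on PEG, library 4 had the lowest value for 31 members, against 43.5% of the background genes. Its median deviation was -0.19 over the members and -0.01 over the other genes.

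**Figure D4:**
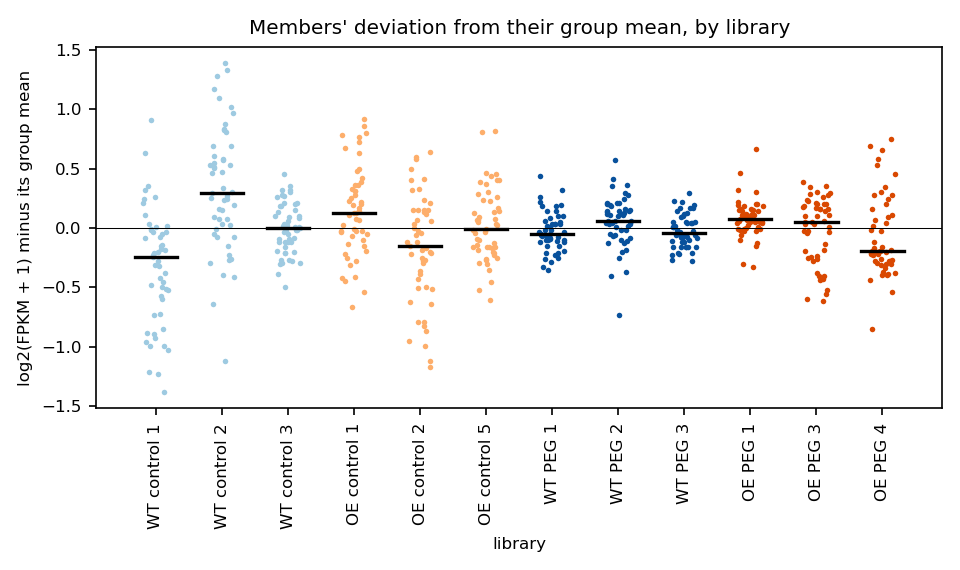
Deviation of each of the 51 members from its group mean of log2(FPKM + 1) (vertical) in each library (horizontal; WT wild type, OE overexpressor), with the median as a black bar. The medians run from -0.24 in wild-type control library 1 to 0.30 in library 2, and the points are more tightly packed in wild type on PEG than in the controls.

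A group of members shared 1 order of libraries within each set of controls. For 13 members, a pattern chosen after the values were seen, the wild-type controls ran 2, 3, 1 from high to low and the overexpressor controls ran 1, 5, 2, against 4.2% of the genes of 5 FPKM. Among them were Potri.005G089900.v3.1, Potri.002G201600.v3.1, Potri.014G126100.v3.1 and Potri.013G009800.v3.1, all above 100 FPKM in wild type on PEG. Within the wild-type controls, library 2 was 1.69 to 24.2 times library 1 for these 13, and overexpressor control library 1 was 1.17 to 8.39 times library 2. Potri.007G034700.v3.1 shows the pattern at a lower level, with 0.938, 10.3 and 3.15 FPKM in wild-type controls and 4.87, 1.06 and 2.72 FPKM in overexpressor controls. On PEG the same gene had 22.2, 33.1 and 26.2 FPKM in wild type and 24.4, 24.8 and 17.7 FPKM in the overexpressor. The 13 had a median of 76.0 FPKM in wild type on PEG and the other 38 members 11.4 FPKM. Potri.014G108900.v3.1 did not share the order: its lowest wild-type control was library 2 and its highest overexpressor control was library 2.

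The counted lengths were short. They ran from 252 to 2677 bases with a median of 1146 bases, where the genes of 5 FPKM had a median of 1776 bases. At equal FPKM a shorter gene rests on fewer reads.

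Position can be read only from the identifiers, whose first number is the chromosome and whose second follows the order along it. Both belong to the gene models used for counting, which the sources used here do not name. Position in *P. ussuriensis* itself was not checked. Of the 51, 50 carry a chromosome number and Potri.T162600.v3.1 does not. They fall on 16 chromosomes, with 6 each on 1 and 9, and 5 each on 3 and 14. Of the 34410 numbered identifiers, chromosomes 1 and 9 hold 4086 and 1526, and chromosomes 3 and 14 hold 2001 and 1745. One pair of members has adjacent identifiers, Potri.009G067800.v3.1 and Potri.009G067900.v3.1, with counted lengths of 2677 and 786 bases. They differ in level and in direction of the genotype difference on PEG: the first rose from 4.86 to 13 FPKM (wild type) and from 6.45 to 18.7 FPKM (overexpressor), the second from 0.255 to 11.6 FPKM and from 0.426 to 6.67 FPKM.

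Some identifiers next to members had higher values on PEG. Of 72 tested identifiers adjacent to a member, 11 had a wild-type response of 2-fold or more (15.3%, against 5.34% of all tested genes) and 7 in both genotypes (against 1.23%). The pair of members above supplies 2 of the 11 and 2 of the 7, and the rule chose those 2 for their responses. Potri.014G108900.v3.1 had such a neighbour on each side. Potri.014G108800.v3.1 went from 8.9 to 272 FPKM in wild type, while the overexpressor went from 36.7 to 127 FPKM. Potri.014G109000.v3.1 went from 71.5 to 312 FPKM and from 77.3 to 192 FPKM. The 3 neighbours have counted lengths of 598, 252 and 604 bases. Whether they are copies of 1 gene that share reads was not tested, so the level of each is uncertain to that extent. Neither neighbour met the rule. Potri.014G108800.v3.1 stood too high in the overexpressor controls and too low on PEG there. Potri.014G109000.v3.1 lay 0.78 below wild type on PEG. Other members also had neighbours of similar counted length. Potri.003G061100.v3.1 (491 bases) lies beside Potri.003G061000.v3.1 (485 bases), which went from 0.404 to 37.9 FPKM in wild type. Potri.006G062800.v3.1 and its neighbour Potri.006G062900.v3.1 both have 2255 bases. Shared reads were not tested there either.

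Outside the rule, the genes nearest to the median member missed it by their level, their overexpressor response or their genotype difference on PEG. Likeness was the distance between log2 profiles over the 4 group means, each relative to the wild-type controls. Potri.018G005200.v3.1 was nearest (distance 0.33), with log2 differences of 1.83 and 1.19 in wild type and the overexpressor and a highest group mean of 3.77 FPKM, under the minimum. Next came Potri.014G109000.v3.1 (0.47) and Potri.006G165700.v3.1 (0.47). The latter was far more abundant than any member, with means of 508 and 1751 FPKM in wild type and 536 and 1046 FPKM in the overexpressor, where its log2 difference of 0.98 was just short of the limit. Potri.001G401800.v3.1 and Potri.011G122100.v3.1 (both 0.49) fell outside through their overexpressor levels on PEG, 0.78 and 0.97 below wild type on the log2 scale.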

How the data were processed

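Each deposited file held 1 value per gene identifier for 1 library. The unit is not named in the headers. The authors' deposited values were taken as FPKM from the values themselves: after 1 depth factor per library, 100.0% of 370737 values above 0 were whole multiples of a gene's step within 0.01 read, and 99.99% of the lengths of 25610 genes over 100 reads came out whole within 0.02 bases. These recovered reads and lengths give the depths and lengths printed. Per the submitters' processing notes, Bowtie2 2.2.3 and HISAT2 2.1.0 were used, without their roles. The sources used here name no counting tool, annotation or build.

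Groups came from the tissue label of each library. Members were found with Python 3.11.15 and pandas 2.3.3 on log2(FPKM + 1). The members, the rule and the gene lists were chosen with earlier results of these data known. Background calls used limma 3.58.1 in R 4.3.3 (empirical Bayes with a trend, 4 group means, 12 libraries, 8 residual degrees of freedom, two-sided) over 24976 genes with at least 1 FPKM in 3 libraries, with Benjamini-Hochberg adjustment over all of them. Fits and read recovery were tested on simulated data. Fold changes on log2(FPKM + 1) understate those of low genes. Genes were named by rank among the members (largest smaller response, highest PEG level, lowest control difference, extremes of the PEG difference, nearest to a threshold) or by likeness to the median member. Others are named as chosen after their values were seen. The 42 gene lists by product description and the promoter motifs planned were not used, since 0 identifiers carry a product. The alternatives were another pseudocount, 2 scalings, no filter, other thresholds, each library left out, a replicate block and limma-voom.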

Additional observations from a re-analysis of the deposited data

Results flagged for a closer look

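The test of a difference between the PEG responses of the genotypes called 1 of the 51 members, Potri.005G221900.v3.1, by limma with an adjusted p under 0.05. All tested genes were called at 3.5% with the more positive and 4% with the more negative response in the overexpressor. The member, chosen after its values were seen, had 1.73, 2.18 and 2.203 FPKM in wild-type controls and 2.95, 3.15 and 2.19 FPKM in overexpressor controls. On PEG it had 11.5, 9.83 and 9.76 FPKM in wild type and 7.55, 8.39 and 5.80 FPKM in the overexpressor, so its response there was smaller by 0.78 on the log2 scale. The rule bounds this difference, so the call is a description. No test for an outlying library was made within the groups of 3.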

How the results depend on the processing

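The number of members, 51, was 49 to 71 with 1 library left out, of which 42 to 48 were among the 51, and 25 of the 51 were kept in every such run. It was 52, 57 and 51 with a pseudocount of 0.1, median-ratio scaling and upper-quartile scaling (40, 46 and 46 of the 51 kept). It moved with the thresholds, to 101 and 21 at log2 folds of 0.75 and 1.5, and to 28 and 75 at windows of 0.5 and 1 on PEG, with 63 and 35 at minimum levels of 1 and 10 FPKM. Under the other pseudocount, both scalings and each left-out library, none of the responses of the 35 named members changed sign. Their choice by a response of at least 2-fold made that outcome likely. The size of a response could move for low genes. With a pseudocount of 0.1 the wild-type log2 response went from 2.76 to 5.59 for Potri.001G246000.v3.1 and from 2.92 to 5.37 for Potri.010G075200.v3.1. For the abundant Potri.014G108900.v3.1 it went from 3.35 to 3.39. With 1 library left out, as few as 46 of the 51 kept a 2-fold response in wild type and as few as 44 in the overexpressor. The number of the 51 members called higher in both genotypes, 41, was 26 with no filter, 40 with limma-voom (added after the data were seen) and 26 to 43 with 1 library left out, the fewest without library 1 of the overexpressor on PEG. Over all genes, the PEG effect was called in 5266 to 7596 genes in wild type (7147 in the full fit) and in 238 to 584 in the overexpressor (519; 331 with no filter) with 1 library left out. The genotype effect was called in 3147 to 5719 on control medium (5080) and 1746 to 3771 on PEG (3620), and the difference of PEG effects in 967 to 2076 (1873). Moves of over 1.5 times came without library 1 of either overexpressor group (329 and 238), in the absence of wild-type control library 2 (3147), of libraries 1 and 3 of wild type on PEG or 3 of the overexpressor on PEG (1779, 1746 and 2157), and, for the difference, in the absence of wild-type control library 3 or of libraries 1 and 3 of wild type on PEG (1240, 967 and 1136). The cause was not tested. Median-ratio scaling moved higher calls from 3191 of 5080 to 2253 of 4883 on control medium and from 2296 of 3620 to 1436 of 3272 on PEG. With the replicate block, the 6 wild-type libraries gave 6836 calls, against 7225 without it. Same-numbered wild-type libraries had correlations of deviations of 0.10, 0.08 and -0.01 across genes, and differently numbered ones -0.096 to 0.015. These values cannot show whether same-numbered libraries belonged together. The labels state no pairing, so the main fit used none. The planned edgeR test on recovered reads was not run, and limma-voom on the same reads took its place.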
